A study of Mus musculus with 12 samples.

Results

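The 9 genes described here are genes by which mast cells, basophils and eosinophils are usually recognised: Mcpt8, Cpa3, Prss34, Fcer1a, Ms4a2, Gata2, Kit, Prg2 and Epx. They are 9 of the 31054 gene identifiers counted in a series of 12 RNA sequencing libraries, and all 9 were among the 13141 genes that passed the filter on low counts. They were picked by name, with earlier results of these libraries known, so their levels and changes are a description. Where the fit over all genes called some of them, the count is given beside the share of all genes called and supports nothing. The libraries were made from dendritic cells grown from the bone marrow of wild-type (WT) C57BL6 mice and enriched on day 7 for viable cells with CD11c, a surface integrin of dendritic cells. The 4 groups of 3 libraries were TolDC with LPS, TolDC, BMDC with LPS and BMDC. TolDC are tolerogenic dendritic cells that received vitamin D3 (VitD3) and interleukin 10 (IL10), BMDC are control cells without these agents, and LPS is bacterial lipopolysaccharide. The sources used here give no doses and no length of the LPS exposure, and do not say whether replicates came from separate mice or cultures. All 4 groups share the strain, the day and the enrichment.

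Mast cells and basophils carry the high-affinity IgE receptor, a complex of an IgE-binding alpha chain, a signal-amplifying beta chain and a pair of gamma chains, and release stored granule proteases and histamine when it is cross-linked. Eosinophils store toxic cationic proteins in their granules. These cells arise in the bone marrow from progenitors that depend on GATA transcription factors, and mast cells need KIT, the receptor of stem cell factor, to survive. Cultures of bone marrow can hold such cells beside the dendritic cells. The enrichment selected for CD11c, and how far it removed such cells was not tested. In such bulk RNA, a larger share of cells of a type and more RNA of a gene in each cell cannot be told apart.

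The libraries held 21844405 to 41764975 assigned reads, so that 3 reads correspond to 0.0718 to 0.137 CPM (counts-per-million of the assigned reads, scaled between libraries), a limit that covers counting error only. Of the dendritic cell markers, Itgax, the gene of CD11c, was at 1251 to 2253 CPM and the class II invariant chain Cd74 at 4147 to 8836 CPM. The level of Itgax does not test the labelled cell type, since the cells were enriched on CD11c. Flt3, a receptor of dendritic cell progenitors, reached no more than 1.75 CPM, and the lectin Cd209a no more than 0.176 CPM. Libraries are named below by the replicate number of their titles. The library numbered 1 of each group stood apart for 8 of the 9 genes. Results of the 9 genes are therefore given with and without these 4 libraries. They are also given from a fit with a replicate block, which compares libraries of the same number. Counts over gene lists are given from the fit of all 12 libraries, and only in part from the other fits.

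The stretches before the start of 4 of the genes are shown because they hold the GATA word found in the search of the promoters. RefSeq promoters on GRCm38.p6 were available for 8 of the 9 genes, and none is shown for Prg2. The 6-base words AGATAA or AGATAG, or else TGATAA or TGATAG, which GATA factors are known to bind, were searched on both strands from 250 bases before to 50 bases after each start. The 250 bases before the start are printed 5′ to 3′ on the strand of the gene, with the word in capitals (TTATCT where AGATAA lies on the opposite strand). They cover chr3:20242182-20242431 (- strand) for Cpa3, chr17:25298144-25298393 (+ strand) for Prss34, chr1:173227230-173227479 (- strand) for Fcer1a and chr19:11623720-11623969 (- strand) for Ms4a2.
Cpa3: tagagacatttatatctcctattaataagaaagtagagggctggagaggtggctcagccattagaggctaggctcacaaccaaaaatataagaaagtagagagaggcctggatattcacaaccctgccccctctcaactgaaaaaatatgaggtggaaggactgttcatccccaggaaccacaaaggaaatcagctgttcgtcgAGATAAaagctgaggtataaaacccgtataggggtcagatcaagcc
Prss34: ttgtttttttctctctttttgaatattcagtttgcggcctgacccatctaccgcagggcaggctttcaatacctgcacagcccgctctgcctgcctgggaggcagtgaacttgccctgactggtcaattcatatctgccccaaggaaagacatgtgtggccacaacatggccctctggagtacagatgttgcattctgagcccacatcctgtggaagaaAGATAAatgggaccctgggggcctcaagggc
Fcer1a: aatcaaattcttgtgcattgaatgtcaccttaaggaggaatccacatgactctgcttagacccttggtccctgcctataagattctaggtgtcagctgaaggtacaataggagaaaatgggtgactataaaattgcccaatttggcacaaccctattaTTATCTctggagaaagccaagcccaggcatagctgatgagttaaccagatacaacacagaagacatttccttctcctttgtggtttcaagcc
Ms4a2: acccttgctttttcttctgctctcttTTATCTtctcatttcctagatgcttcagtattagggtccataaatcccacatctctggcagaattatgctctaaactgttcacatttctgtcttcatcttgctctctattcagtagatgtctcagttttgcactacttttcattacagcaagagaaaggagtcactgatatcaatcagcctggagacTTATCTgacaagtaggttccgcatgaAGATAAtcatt

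All the hits were AGATAA, and no hit overlapped another. Its leftmost base lay at position -46 from the start of Cpa3 and at -31 from that of Prss34, both on the strand of the gene, and at -92 on the opposite strand of Fcer1a. Ms4a2 held it 3 times, at -224 and -37 on the opposite strand and at -11 on its own strand. None of the 4 words was found in the windows of Mcpt8, Gata2, Kit or Epx, of which Gata2 and Kit have 2 promoters each. Of all 32851 promoters of 300 bases in the table, 29.8% held at least 1 of the 4 words, 11.2% held AGATAA on either strand, and 0.107% held it 3 or more times. These matches describe the letters in the windows and do not show that a factor binds there.

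The granule proteases were present in every library and lowest in library 1 of every group. Mcpt8, a serine protease that marks mouse basophils (ENSMUSG00000022157, GRCm38 chromosome 14, 56082166 to 56085273, minus strand), was with LPS at 10.8, 57.7 and 49.5 CPM in TolDC libraries 1, 2 and 3, against 4.36, 29.1 and 24.2 CPM in BMDC. Without LPS it was at 9.99, 56.6 and 57.5 CPM in TolDC, against 6.32, 24.6 and 24.1 CPM in BMDC. Libraries 2 and 3 of TolDC lay above all BMDC libraries, but library 1 of TolDC lay below libraries 2 and 3 of BMDC, so the ranges of the groups overlapped.

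Cpa3, the carboxypeptidase of mast cell granules (ENSMUSG00000001865, chromosome 3, 20215620 to 20242181, minus strand), was with LPS at 8.98, 40.5 and 33.8 CPM in TolDC, against 5.35, 23.4 and 22.1 CPM in BMDC. Without LPS, Cpa3 was at 8.17, 41.6 and 39.0 CPM in TolDC, against 5.12, 19.2 and 19.4 CPM in BMDC. The picture was that of Mcpt8, with TolDC above BMDC among libraries of the same number. Prss34, a serine protease of basophils (ENSMUSG00000056399, chromosome 17, 25298394 to 25300165, plus strand), was with LPS at 21.1, 108 and 86.1 CPM in TolDC, against 12.03, 67.6 and 61.1 CPM in BMDC. Without LPS, Prss34 was at 20.5, 111 and 113 CPM in TolDC, against 11.96, 49.9 and 51.0 CPM in BMDC. It had the highest CPM of the 3 proteases in all 12 libraries.

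The 2 chains that are specific to the IgE receptor were at much lower levels. Fcer1a, the alpha chain that binds IgE (ENSMUSG00000005339, chromosome 1, 173221284 to 173227214, minus strand), was with LPS at 1.37, 5.65 and 5.25 CPM in TolDC, against 0.880, 5.07 and 4.23 CPM in BMDC. Without LPS, Fcer1a was at 1.15, 6.37 and 5.18 CPM in TolDC, against 0.635, 3.01 and 2.58 CPM in BMDC, where library 1 held 18 of its reads. The ranges overlapped in both pairs, and only BMDC without LPS had libraries 2 and 3 clearly below those of the other groups. Ms4a2, the beta chain (ENSMUSG00000024680, chromosome 19, 11615523 to 11623719, minus strand), was with LPS at 1.21, 7.63 and 6.66 CPM in TolDC, against 1.20, 4.84 and 4.14 CPM in BMDC. Without LPS, Ms4a2 was at 2.10, 7.43 and 7.19 CPM in TolDC, against 1.23, 4.63 and 4.39 CPM in BMDC. Here the library 1 values of TolDC with LPS and both BMDC groups were all but equal.

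Gata2, a transcription factor of blood progenitors that mast cells and basophils keep (ENSMUSG00000015053, chromosome 6, 88193891 to 88207032, plus strand), was with LPS at 5.32, 16.7 and 14.6 CPM in TolDC, against 2.50, 10.7 and 9.17 CPM in BMDC. Without LPS, Gata2 was at 6.82, 16.4 and 17.1 CPM in TolDC, against 2.15, 6.03 and 6.76 CPM in BMDC, and these ranges touched without overlapping. Kit, the stem cell factor receptor of mast cells and progenitors (ENSMUSG00000005672, chromosome 5, 75574916 to 75656722, plus strand), was with LPS at 22.7, 24.4 and 23.9 CPM in TolDC, against 3.13, 5.02 and 4.99 CPM in BMDC. Without LPS, Kit was at 23.6, 21.3 and 22.1 CPM in TolDC, against 1.76, 1.72 and 1.94 CPM in BMDC. All TolDC libraries lay far above all BMDC libraries for Kit, and library 1 was not set apart in 3 of the 4 groups.

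The eosinophil granule genes shared the low library 1. Prg2, the major basic protein (ENSMUSG00000027073, chromosome 2, 84980461 to 84983632, plus strand), was with LPS at 26.8, 104 and 87.1 CPM in TolDC, against 10.3, 65.9 and 56.1 CPM in BMDC. Without LPS, Prg2 was at 20.3, 124 and 126 CPM in TolDC, against 18.6, 78.4 and 77.1 CPM in BMDC. In libraries 2 and 3 it was highest in TolDC without LPS and lowest in BMDC with LPS. Epx, the eosinophil peroxidase (ENSMUSG00000052234, chromosome 11, 87864000 to 87875536, minus strand), was with LPS at 3.33, 15.3 and 10.8 CPM in TolDC, against 2.18, 15.9 and 13.4 CPM in BMDC. Without LPS, Epx was at 3.77, 19.6 and 20.5 CPM in TolDC, against 5.26, 15.5 and 16.1 CPM in BMDC. Its 4 ranges overlapped throughout, and by group mean it was lowest in TolDC with LPS, as none of the other 8 genes was.

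**Figure D1:**
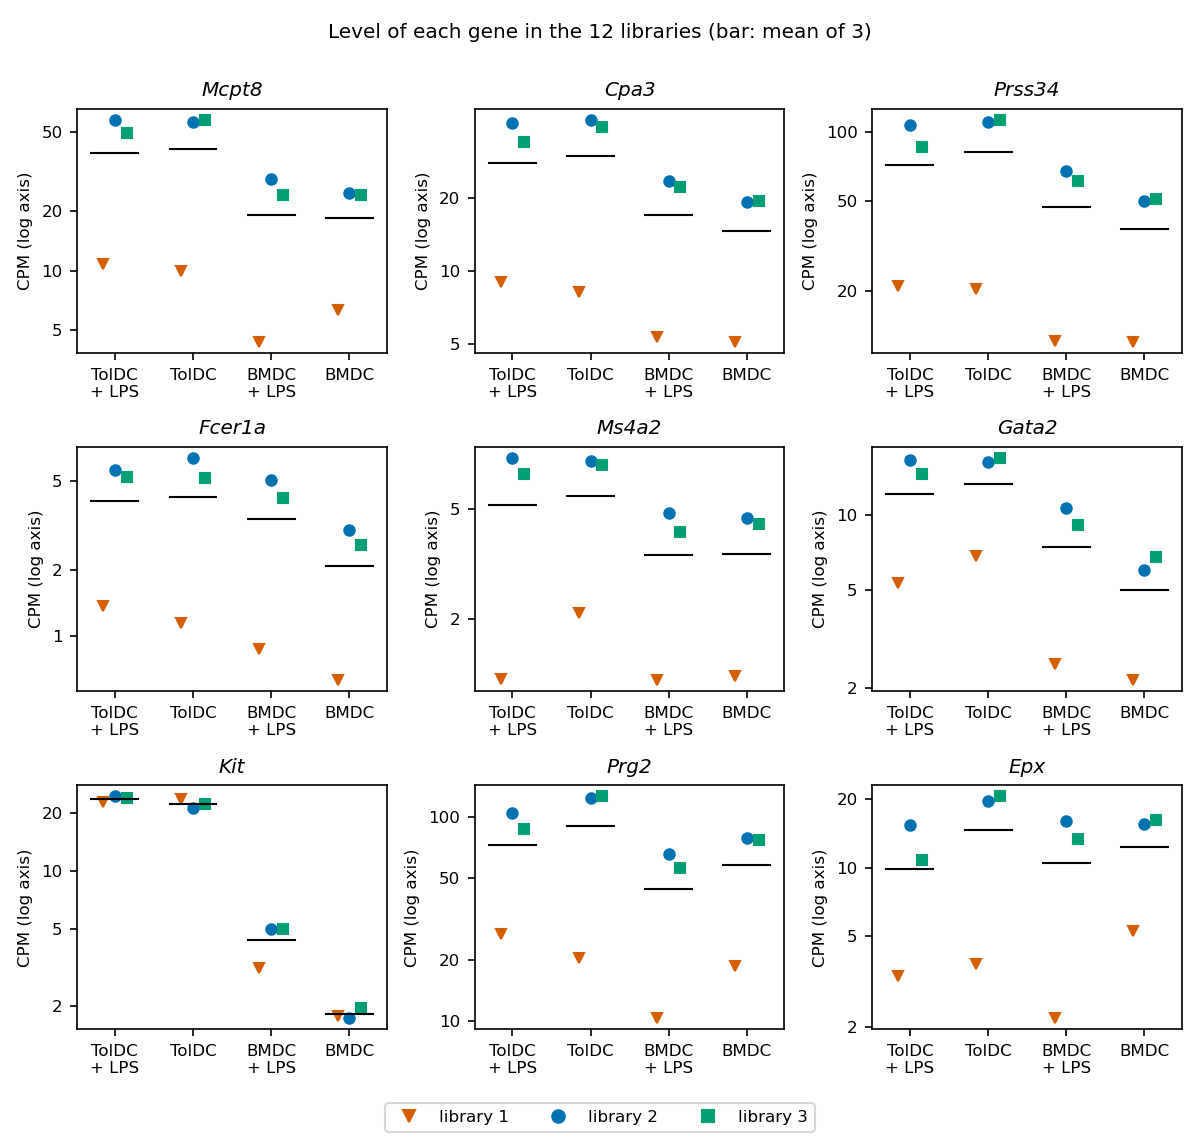
CPM (log axis) of each of the 9 genes in the 12 libraries, by group, with a symbol for the library number and a bar for the mean of 3 libraries. Library 1 lies below libraries 2 and 3 in every group for all genes but Kit, and Kit separates TolDC (21.3 to 24.4 CPM) from BMDC (1.72 to 5.02 CPM).

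By group mean, Mcpt8, Cpa3, Prss34, Fcer1a, Ms4a2, Gata2 and Prg2 were highest in TolDC, with TolDC with LPS next. For Mcpt8 the means were 39.4 ± 25.1 CPM in TolDC with LPS, 41.4 ± 27.2 in TolDC, 19.2 ± 13.1 in BMDC with LPS and 18.4 ± 10.4 in BMDC (SD, n = 3 each). Neighbours in the order of group means had overlapping ranges for every gene but Kit. For Kit, TolDC with LPS and TolDC overlapped, at 23.7 ± 0.875 and 22.3 ± 1.14 CPM, while BMDC with LPS at 4.38 ± 1.08 CPM and BMDC at 1.81 ± 0.115 CPM were separate from them and from each other (SD, n = 3 each).

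Levels of different genes were compared per kilobase of exon. In TolDC the mean level was 107 CPM per kilobase for Prg2, 66.9 for Prss34, 41.5 for Mcpt8 and 19.5 for Cpa3. The level per kilobase was 5.35 for Epx, 4.24 for Fcer1a, 2.51 for Kit, 2.49 for Gata2 and 1.98 for Ms4a2. In BMDC, Prg2 was again highest, at 69.3 CPM per kilobase, and Kit lowest, at 0.203. The granule genes Prg2, Prss34, Mcpt8 and Cpa3 thus stood above the receptor chains and Gata2 in both groups.

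The libraries numbered 1 stood below the others for 8 of the 9 genes. The CPM of library 1 over the mean of libraries 2 and 3 of its group was 0.164 to 0.259 for Mcpt8 over the 4 groups, 0.203 to 0.265 for Cpa3 and 0.183 to 0.237 for Prss34. It was 0.189 to 0.252 for Fcer1a, 0.169 to 0.288 for Ms4a2, 0.162 to 0.280 for Prg2 and 0.149 to 0.332 for Epx. Gata2, at 0.252 to 0.407, was less reduced, and Kit, at 0.626 to 1.08, was close to even outside BMDC with LPS. Libraries 2 and 3 were close to each other, with ratios of 0.887 to 1.42 over all genes and groups.

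Library 1 was the lowest of its group in all 4 groups for 8 of the 9 genes, and at most 0.5 of the mean of the others in all 4 groups for the same 8 genes. Over all genes tested, 6.92% met the first condition and 0.647% the second. Nothing is read from these counts, since the genes were picked with this pattern of the libraries known. Library 1 was highest in all 4 groups for 9.22% of the genes tested and for none of the 9.

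**Figure D2:**
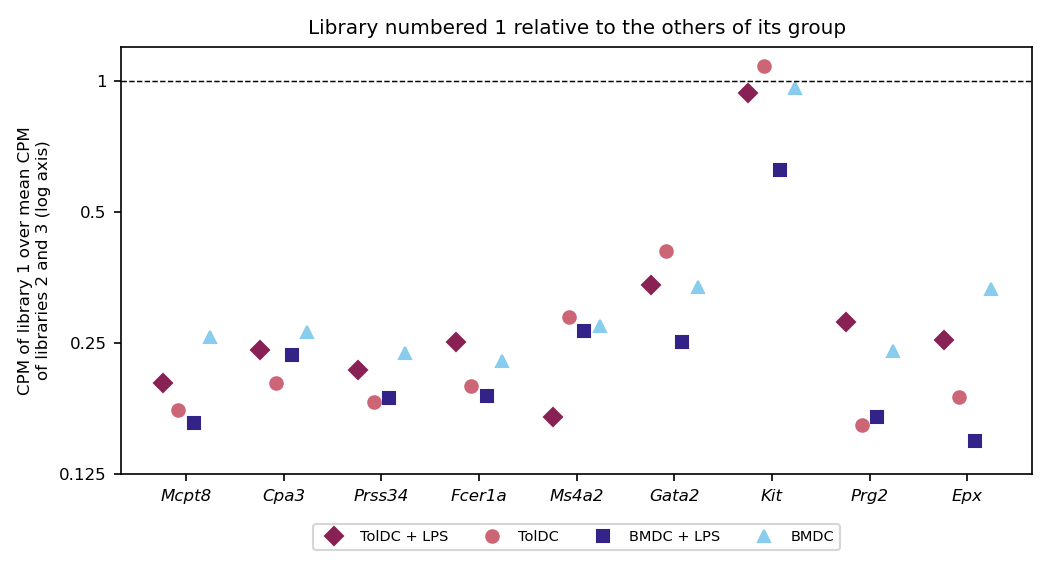
CPM of library 1 over the mean CPM of libraries 2 and 3 of the same group (log axis) for the 9 genes, 1 point for each group, with a dashed line at 1. Points lie between 0.149 and 0.407 for 8 genes and between 0.626 and 1.08 for Kit.

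The first comparison asks how cells treated with vitamin D3 and IL10 differ from control cells. With LPS, the fitted log2 change of TolDC against BMDC was 2.45 ± 0.12 (SE) for Kit and 1.08 ± 0.93 for Mcpt8. Cpa3 was at 0.75 ± 0.84, Prss34 at 0.64 ± 0.91, Gata2 at 0.76 ± 0.66, Ms4a2 at 0.67 ± 0.82 and Prg2 at 0.75 ± 0.92 on the same scale. Fcer1a was at 0.33 ± 0.83 and Epx at -0.05 ± 0.88. In the edgeR fit of all 12 libraries, 1 of the 9 genes, Kit, was called higher and none lower at an adjusted p below 0.05, where 67.9% of all genes tested were called (34.3% higher and 33.7% lower).

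Without the 4 libraries numbered 1, the standard errors of the genes other than Kit were far smaller and their values close to those of the full fit. Kit moved from 2.45 by more than its standard error. With LPS they were 2.27 ± 0.093 for Kit, 1.00 ± 0.078 for Mcpt8, 0.70 ± 0.069 for Cpa3, 0.58 ± 0.14 for Prss34, 0.65 ± 0.091 for Gata2, 0.66 ± 0.13 for Ms4a2 and 0.64 ± 0.12 for Prg2. These 7 genes were called higher, where 35.1% of all genes tested were called higher and 34.0% lower, and Fcer1a (0.23 ± 0.14) and Epx (-0.19 ± 0.16) were not called. The fit then rests on 2 libraries in each group. With all 12 libraries and the replicate block, 8 of the 9 genes were called, all higher and all but Epx, beside 71.9% of all genes tested. Mcpt8 was then at 1.05 ± 0.093 and Fcer1a, the gene added to the 7, at 0.29 ± 0.13.

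Without LPS, the values of TolDC against BMDC were larger for most of the genes. Kit was at 3.63 ± 0.13, a 12.4-fold level, and Gata2 at 1.45 ± 0.68 (log2 ± SE). Mcpt8 was at 1.18 ± 0.92, Prss34 at 1.13 ± 0.92, Cpa3 at 1.03 ± 0.84 and Fcer1a at 1.03 ± 0.88. Ms4a2 was at 0.72 ± 0.81, Prg2 at 0.64 ± 0.90 and Epx at 0.26 ± 0.84. Kit was again the only 1 of the 9 called with all 12 libraries, beside 62.4% of all genes tested (32.0% higher and 30.4% lower).

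Without the libraries numbered 1, 8 of the 9 genes were called higher in TolDC without LPS, where 32.5% of all genes tested were called higher and 31.3% lower. Their log2 changes then ran from 0.68 ± 0.11 for Prg2 to 3.58 ± 0.12 for Kit, with 1.40 ± 0.098 for Gata2 and 1.22 ± 0.078 for Mcpt8. Epx, at 0.35 ± 0.14, was not called. The replicate block called 8 genes higher as well, all but Epx, beside 66.8% of all genes tested called, with Mcpt8 at 1.15 ± 0.092 and Gata2 at 1.46 ± 0.11. The median change over the 9 genes was 1.03 with all libraries and 1.06 without number 1, beside 0.01 and 0.00 over all genes tested.

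**Figure D3:**
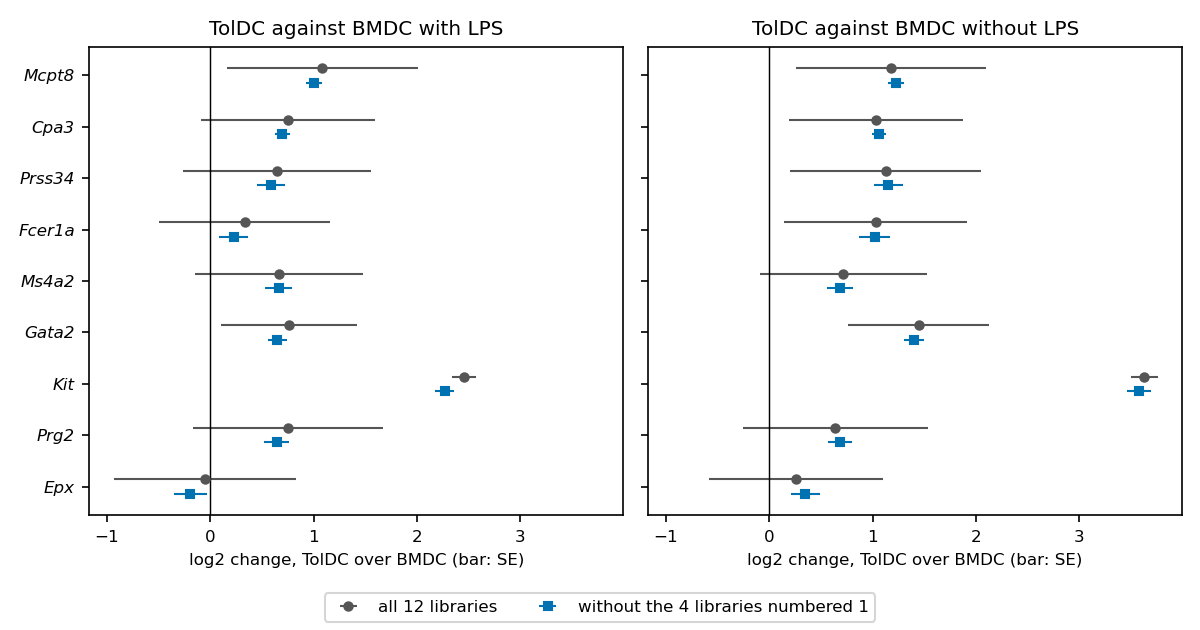
Fitted log2 change of TolDC over BMDC (points, with SE bars) for the 9 genes, with LPS on the left and without LPS on the right, in the fit of all 12 libraries and in the fit without the 4 libraries numbered 1. The points of both fits lie close together, while the bars of all genes but Kit shrink, as for Mcpt8 without LPS (0.92 and 0.078).

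The same folds could be read within a library number. Without LPS, the level in TolDC over that in BMDC was 1.58, 2.30 and 2.38 for Mcpt8 at numbers 1, 2 and 3, and 3.17, 2.73 and 2.52 for Gata2. Kit gave 13.4, 12.4 and 11.4. Fcer1a gave 1.81, 2.11 and 2.01, and Epx 0.717, 1.26 and 1.27, so that Epx alone of the 9 was lower in TolDC at number 1. With LPS, Kit gave 7.24, 4.85 and 4.79 and Mcpt8 2.48, 1.99 and 2.05.

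For TolDC against BMDC, the ranges of the groups did not overlap for Kit with LPS and for Kit and Gata2 without LPS. Over all genes tested, the ranges did not overlap for 71.4% with LPS and 66.9% without.

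The response to LPS was next compared within each kind of cell. In TolDC, none of the 9 genes was called with LPS against without it in the fit of all 12 libraries, beside 71.3% of all genes tested (35.4% higher and 35.9% lower). None had an unadjusted p below 0.05 in edgeR or in DESeq2. The log2 changes ran from -0.58 ± 0.84 (SE) for Epx to 0.08 ± 0.095 for Kit. Without the libraries numbered 1, Prg2 at -0.39 ± 0.11 and Epx at -0.65 ± 0.14 were called lower, beside 36.6% of all genes tested, and Kit at 0.15 ± 0.065 was called higher, beside 36.0%. Both eosinophil granule genes were thus at a lower level with LPS in libraries 2 and 3 of TolDC, by 0.761-fold for Prg2 and 0.638-fold for Epx. With the replicate block, 1 of the 9 genes, Epx, was called, at -0.58 ± 0.20, beside 74.4% of all genes tested, and Prg2 was at -0.24 ± 0.16.

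In BMDC, Kit was at a 2.40-fold level with LPS, a log2 change of 1.26 ± 0.16, and was the only 1 of the 9 genes called, beside 73.2% of all genes tested (36.7% higher and 36.4% lower). Within numbers 1, 2 and 3 the fold of Kit was 1.77, 2.92 and 2.58. Without the libraries numbered 1, Cpa3 (0.23 ± 0.081), Fcer1a (0.71 ± 0.17), Gata2 (0.64 ± 0.11) and Kit (1.46 ± 0.17) were called higher, beside 36.6% of all genes tested, with 37.1% lower. Mcpt8 (0.12 ± 0.092), Prss34 (0.35 ± 0.15), Ms4a2 (-0.02 ± 0.15), Prg2 (-0.35 ± 0.13) and Epx (-0.11 ± 0.16) were not called there. The replicate block called 5 genes, the same 4 and Prss34 at 0.29 ± 0.10, beside 75.9% of all genes tested.

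The difference between both LPS responses (that of TolDC minus that of BMDC) was -1.18 ± 0.19 on the log2 scale for Kit, the only 1 of the 9 called with all 12 libraries, beside 44.4% of all genes tested (20.4% higher and 24.0% lower). Without number 1, Cpa3 (-0.36 ± 0.10), Fcer1a (-0.79 ± 0.21), Gata2 (-0.75 ± 0.14) and Kit (-1.31 ± 0.18) were called lower, beside 25.0% of all genes tested, with 22.3% higher. The replicate block called 5 of the 9 lower, with Prss34 at -0.46 ± 0.13 as the fifth, beside 49.8% of all genes tested. Each group enters more than 1 of these comparisons, and the difference uses all 4 groups. The ranges with and without LPS did not overlap for Kit in BMDC, where this held for 74.8% of all genes tested, and for none of the 9 genes in TolDC, where it held for 75.6%.

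Ratios between the genes within a library were then taken, since any factor that scales all of them in a library cancels there. The pairs were chosen after their levels were seen. Reads of Prss34 per Mcpt8 read ran from 1.74 to 2.76 over the 12 libraries and those of Cpa3 from 0.679 to 1.23, although the level of Mcpt8 itself ran from 4.36 to 57.7 CPM. Fcer1a stayed between 0.0900 and 0.202 per Mcpt8 read and Ms4a2 between 0.111 and 0.274. Relative to Mcpt8, these genes varied far less over the libraries than Mcpt8 itself. Kit did not, and its reads per Mcpt8 read ran from 0.0697 to 2.36, a 33.8-fold span.

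Some of these proportions separated the groups. Fcer1a was at 0.202, 0.174 and 0.175 reads per Mcpt8 read in BMDC with LPS libraries 1, 2 and 3 and at no more than 0.127 in any library of the other groups. Epx per Mcpt8 read was at 0.307, 0.266 and 0.218 in TolDC with LPS, 0.377, 0.346 and 0.357 in TolDC, 0.5, 0.548 and 0.554 in BMDC with LPS, and 0.832, 0.629 and 0.668 in BMDC. The 4 groups did not overlap, and library 1 was the highest of its group in 3 of them. Prg2 per Mcpt8 read was at 2.47, 1.81 and 1.76 in TolDC with LPS, 2.03, 2.19 and 2.19 in TolDC, 2.36, 2.27 and 2.32 in BMDC with LPS, and 2.95, 3.18 and 3.19 in BMDC. BMDC lay above all other libraries here.

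The eosinophil genes were also unequal between themselves, with 0.124, 0.147 and 0.124 Epx reads per Prg2 read in TolDC with LPS, 0.186, 0.158 and 0.163 in TolDC, 0.212, 0.242 and 0.239 in BMDC with LPS, and 0.282, 0.198 and 0.209 in BMDC. Each TolDC library lay below each BMDC library. The receptor chains gave 0.514 to 1.14 Fcer1a reads per Ms4a2 read over the 12 libraries.

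**Figure D4:**
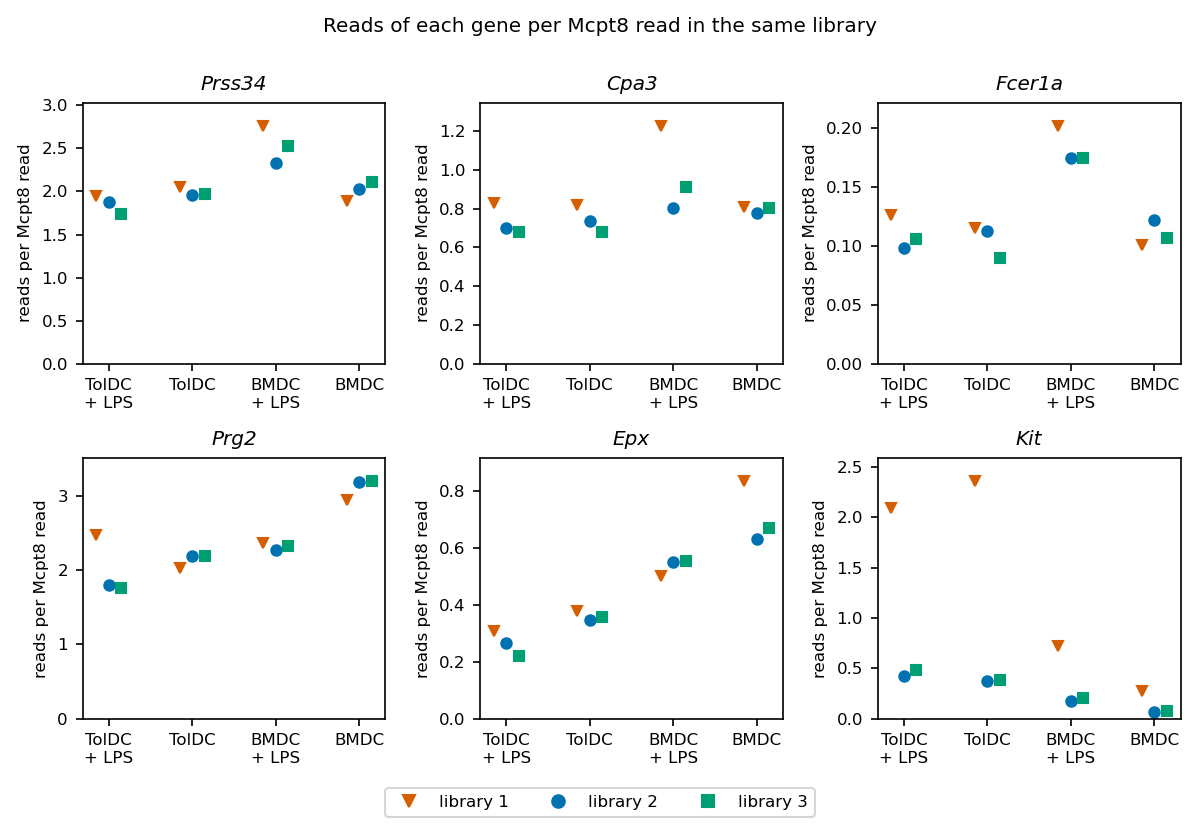
Reads of 6 of the genes per Mcpt8 read of the same library, by group, with a symbol for the library number and axes that start at 0. Prss34 and Cpa3 stay within 1.74 to 2.76 and 0.679 to 1.23, Epx falls into 4 separate groups between 0.218 and 0.832, and Kit spans 0.0697 to 2.36.

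Likeness over the 12 libraries was measured as the root mean square difference of centred log2 CPM, among 10814 named protein-coding genes with a mean of at least 1 CPM. The closest pair of the 9 was Prss34 and Cpa3, at 0.12, and each was the nearest of all these genes to the other. Kit was far from the other 8, at 1.19 (Gata2) to 1.86 (Epx). Among genes outside the 9, those most like Cpa3 were Cyp11a1, a steroid-producing enzyme, at 0.20, Nkg7, a granule protein of cytotoxic lymphocytes, at 0.21, and Gimap3, a GTPase of lymphocytes, at 0.26. The same 3 genes were nearest to Mcpt8 (0.35 to 0.37) and to Prss34 (0.29). These 12 points share library, depth and the number 1 pattern: the library 1 ratio of Cyp11a1 was 0.247 to 0.373.

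For the other genes the neighbours were partly different. Fcer1a was nearest to Cyp11a1 (0.26), Gzmb (0.30), the cytotoxic protease granzyme B, and Gimap3 (0.31), and Ms4a2 to Cyp11a1 (0.25) and the proteases Ctsg and Ctsw (0.31 each). Gata2 was nearest to Gimap3 (0.22), Sh2d2a (0.28) and Cd96 (0.29), genes known from T and natural killer cells. Prg2 was nearest to Ctsg (0.30), Nkg7 (0.37) and Cyp11a1 (0.38). Epx was nearest to Ear1 (0.24), an eosinophil ribonuclease, Ly6g (0.30), a neutrophil surface protein, and Ctsg (0.32). Kit had other neighbours, Acsbg1 (0.26), Pdpn (0.34) and Vldlr (0.34), none of which was low in library 1 of every group. Pdpn, the surface mucin podoplanin, was at 13.1 to 18.6 CPM in the 6 TolDC libraries and at 1.75 to 4.27 CPM in the 6 BMDC libraries.

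Of 26 further effector genes of basophils and mast cells, 14 passed the filter. With LPS against without, 4 rose and 3 fell in TolDC and 3 rose and 3 fell in BMDC, and against BMDC, TolDC had 2 higher with LPS and 3 higher without, with none lower (edgeR). Of all genes tested, 35.4% rose and 35.9% fell with LPS in TolDC, and 36.7% rose and 36.4% fell in BMDC. In TolDC against BMDC, 34.3% were higher and 33.7% lower with LPS, and 32.0% higher and 30.4% lower without. With the replicate block, TolDC against BMDC had 5 higher and 1 lower both with and without LPS. Beside this, 71.9% and 66.8% of all genes tested were called. In BMDC, 6 of the 14 genes then rose and 3 fell with LPS, beside 75.9% of all genes tested called. Without the 4 libraries numbered 1, 6 rose and 4 fell with LPS in BMDC, beside 36.6% and 37.1% of all genes tested. Hdc, which makes histamine, averaged 146 ± 14.99 CPM in TolDC with LPS and 9.75 ± 4.61 in TolDC, 196 ± 3.99 in BMDC with LPS and 4.69 ± 1.90 in BMDC (SD, n = 3 each). It rose with LPS by 3.90 ± 0.30 on the log2 scale in TolDC (edgeR adjusted p = 3.22e-06) and by 5.397 ± 0.34 in BMDC (edgeR adjusted p = 5.92e-07). The library 1 ratio of Hdc ran from 0.358 in TolDC to 0.970 in BMDC with LPS, where library 1 was hardly set apart. Cd200r3, an activating receptor of mast cells and basophils, fell with LPS to 5.71 ± 3.35 CPM in TolDC, against 22.1 ± 2.79 without LPS, and to 6.81 ± 1.74 CPM in BMDC, against 23.8 ± 1.29 without (SD, n = 3 each; edgeR adjusted p = 0.00107 and 0.00167).

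The leukotriene enzymes of this list changed in opposite directions. Alox5, which starts leukotriene synthesis, fell with LPS by 1.20 ± 0.26 on the log2 scale in TolDC (edgeR adjusted p = 0.00253) and by 1.15 ± 0.26 in BMDC (edgeR adjusted p = 0.00374). Ltc4s, the leukotriene C4 synthase, rose by 1.18 ± 0.17 in TolDC (edgeR adjusted p = 0.000162) and by 0.90 ± 0.17 in BMDC (edgeR adjusted p = 0.000846). Hpgds, the prostaglandin D2 synthase, was higher in TolDC than in BMDC with LPS, by 1.90 ± 0.19 (edgeR adjusted p = 6.48e-08), and without it, by 1.36 ± 0.15 (edgeR adjusted p = 2.02e-07). Cma1, a mast cell chymase, averaged 2.58 ± 1.57 CPM in TolDC and 0.365 ± 0.178 in BMDC (SD, n = 3 each), a log2 change of 2.86 ± 0.97 (edgeR adjusted p = 0.0298). That call was lost when any of 5 single libraries of these groups was left out, at 2.49 to 3.23.

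Some mast cell genes of this list were at or near 0, and they are named after their values were seen. Mcpt9, Tpsab1, Mrgprb1 and Mrgprb2 had no read in any library. Mcpt4 had 12 reads in all libraries together, Tpsb2, a mast cell tryptase, 11 and Cma2 1, and Mcpt1 reached no more than 0.202 CPM. At these depths their absence cannot be told from levels below the limit given above. Low levels were not particular to mast cell genes. Of the same list, Ptgdr2 had 5 reads in all libraries together and Itga2 45. Of the eosinophil genes below, Il5ra had 40 and Ear10 18. Other mast cell genes were measured, among them Cma1 and Hdc above and Slc18a2, the granule amine transporter, at 4.43 ± 2.12 CPM in TolDC with LPS and 4.51 ± 2.30 in TolDC (SD, n = 3 each). Il4 and Il13, cytokines of basophils, passed the filter. Il13 averaged 1.03 ± 0.281 CPM in TolDC with LPS against 0.148 ± 0.226 CPM in TolDC (SD, n = 3 each, edgeR adjusted p = 0.000921). Libraries 1 and 3 of TolDC, at 0 and 0.0352 CPM, lay below the limit of 3 reads. In BMDC, Il13 averaged 0.229 ± 0.091 CPM with LPS and 0.101 ± 0.0897 without (SD, n = 3 each), and was not called (edgeR adjusted p = 0.291).

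Of 11 further eosinophil genes, 9 passed the filter, and in each of the 4 comparisons 4 were lower and none higher (edgeR), beside 30.4% to 36.4% of all genes tested that were called lower. The 4 were the ribonucleases Ear2, Rnase2a and Rnase2b, and Siglecf, an inhibitory receptor of eosinophils that some macrophages carry as well. Siglecf averaged 5.93 ± 0.333 CPM in TolDC with LPS, 60.7 ± 0.543 in TolDC, 58.7 ± 8.54 in BMDC with LPS and 186 ± 5.84 in BMDC (SD, n = 3 each). It fell with LPS by 3.35 ± 0.09 on the log2 scale in TolDC (edgeR adjusted p = 1.65e-13) and by 1.66 ± 0.07 in BMDC (edgeR adjusted p = 2.98e-11). Rnase2a averaged 77.6 ± 7.08 CPM in TolDC with LPS, 213 ± 11.1 in TolDC, 417 ± 43.1 in BMDC with LPS and 682 ± 11.5 in BMDC (SD, n = 3 each). None of these 4 genes was lowest in library 1 of every group, while Prg3, Ear1, Ear6 and Alox15, which were not called in any of the 4 comparisons, were. With the replicate block, 7 of the 9 genes fell with LPS in TolDC and in BMDC, with Ear1, Ear6 and Alox15 added. Beside this, 74.4% and 75.9% of all genes tested were called in either direction. With LPS, 4 genes were then higher in TolDC than in BMDC (Prg3, Ear6, Alox15 and the chemokine receptor Ccr3) and 4 lower. Of all genes tested, 71.9% were called there. Without the 4 libraries numbered 1, 8 of the 9 genes fell with LPS in TolDC and in BMDC. Of all genes tested, 36.6% and 37.1% then fell. With LPS, 4 genes were then higher in TolDC than in BMDC and 4 lower, beside 35.1% and 34.0%. The ribonucleases have near-identical relatives, and reads that match several places were not counted, so their levels are uncertain.

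The signalling genes behind the IgE receptor are shared with many blood cells, and all 18 passed the filter. With LPS, 7 rose and 10 fell in TolDC and 5 rose and 9 fell in BMDC, and TolDC against BMDC had 8 higher and 5 lower with LPS and 6 higher and 9 lower without (edgeR). Over all genes tested, 71.3% were called for LPS in TolDC, 73.2% for LPS in BMDC, and 67.9% and 62.4% for TolDC against BMDC with and without LPS. Fcer1g, the gamma chain used by several Fc receptors, averaged 849 ± 21.7 CPM in TolDC with LPS, 405 ± 12.95 in TolDC, 628 ± 33.2 in BMDC with LPS and 407 ± 30.0 in BMDC (SD, n = 3 each). Lat, an adaptor of the T cell and IgE receptors, was higher in TolDC than in BMDC by 3.29 ± 0.08 on the log2 scale with LPS (edgeR adjusted p = 4.01e-16) and by 1.65 ± 0.08 without (edgeR adjusted p = 7.62e-12). Its relative Lat2 was higher by 1.82 ± 0.05 with LPS (edgeR adjusted p = 1.75e-16). Pik3cd, a lipid kinase, was lower in TolDC by 1.60 ± 0.05 with LPS (edgeR adjusted p = 1.08e-15).

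Of 16 growth factors and cytokine receptors of these lineages, 13 passed the filter. With LPS, 8 rose and 2 fell in TolDC and 9 rose and 1 fell in BMDC, and TolDC against BMDC had 6 higher and 4 lower with LPS and 7 higher and 2 lower without (edgeR). Of all genes tested, 35.4% rose with LPS in TolDC and 36.7% in BMDC, and 34.3% and 32.0% were higher in TolDC with and without LPS. Those that fell with LPS were 35.9% in TolDC and 36.4% in BMDC, and 33.7% and 30.4% were lower in TolDC with and without LPS. Kitl, the stem cell factor that binds KIT, was low, at 0.130 ± 0.0355 CPM in TolDC with LPS, 0.448 ± 0.0474 in TolDC, 0.335 ± 0.183 in BMDC with LPS and 3.37 ± 0.531 in BMDC (SD, n = 3 each). It was lower in TolDC than in BMDC without LPS, with a log2 change of -2.90 ± 0.25 (edgeR adjusted p = 8.94e-09), where Kit was higher. Il33, a cytokine that activates mast cells and basophils, was higher in TolDC by 4.04 ± 0.13 with LPS (edgeR adjusted p = 9.81e-15) and by 4.51 ± 0.15 without (edgeR adjusted p = 2.94e-14). Its receptor Il1rl1 was not called in any of the 4 comparisons and had a library 1 ratio of 0.247 to 0.768, and with the replicate block it was called lower with LPS in TolDC and in BMDC. Il3, the main growth factor of basophils, had no read in any library, and Il5, that of eosinophils, had 4 reads in all.

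All 17 transcription factors of these lineages passed the filter. With LPS, 6 rose and 8 fell in TolDC and 8 rose and 4 fell in BMDC, and TolDC against BMDC had 5 higher and 6 lower with LPS and 7 higher and 6 lower without (edgeR). Beside this, 71.3% of all genes tested were called for LPS in TolDC, 73.2% for LPS in BMDC, 67.9% for TolDC against BMDC with LPS and 62.4% without. Tal1, a partner of GATA factors in blood progenitors, averaged 52.1 ± 3.77 CPM in TolDC with LPS, 27.8 ± 1.496 in TolDC, 15.1 ± 0.739 in BMDC with LPS and 4.25 ± 0.577 in BMDC (SD, n = 3 each). Like Kit, it was higher in TolDC with LPS (1.78 ± 0.07, edgeR adjusted p = 9.36e-14) and without (2.70 ± 0.09, edgeR adjusted p = 5.81e-15), and was not lowest in library 1 of every group. Cebpe, a factor of eosinophil and neutrophil maturation, fell with LPS by 2.10 ± 0.24 in TolDC (edgeR adjusted p = 3.22e-05) and by 2.52 ± 0.23 in BMDC (edgeR adjusted p = 5.43e-06). Stat5a, which relays IL-3 and IL-5 signals, rose with LPS by 1.87 ± 0.06 in TolDC (edgeR adjusted p = 3.75e-15) and by 2.66 ± 0.06 in BMDC (edgeR adjusted p = 2.5e-17).

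Over the 5 lists, 24 of the 71 genes tested were lowest in library 1 of all 4 groups, beside 6.92% of all genes tested. They were 11 of 14 effector genes, 4 of 9 eosinophil genes, 1 of 18 signalling genes, 3 of 13 growth factors and receptors and 5 of 17 transcription factors. The geometric mean over the groups of the library 1 ratio had a median of 0.220 over the 9 genes, 0.577 over the effector genes, 0.442 over the eosinophil genes and 1.01 over all genes tested. Medians were 1.01 for the signalling genes, 1.03 for the growth factors and receptors and 0.963 for the transcription factors.

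Markers of other cells of bone marrow moved with the library number as well. All 12 neutrophil markers were lowest in library 1 of every group, with a median ratio of 0.260. Their summed level was 3179 to 4195 CPM in TolDC with LPS, 615 to 1203 in TolDC, 1462 to 3452 in BMDC with LPS and 729 to 2828 in BMDC. Much of the sum with LPS was Lcn2, a protein that binds iron carriers, at 2701 ± 334 CPM in TolDC with LPS, 55.7 ± 28.7 in TolDC, 1466 ± 359 in BMDC with LPS and 154 ± 80.9 in BMDC (SD, n = 3 each). S100a8, a calcium-binding protein of neutrophils, averaged 169.8 ± 72.7 CPM in TolDC with LPS, 228 ± 140.0 in TolDC, 404 ± 245 in BMDC with LPS and 767 ± 450.2 in BMDC (SD, n = 3 each). Among lymphocyte and natural killer cell markers, 6 of 7 were lowest in library 1, with sums of 5.52 to 13.1 CPM in TolDC with LPS, 3.01 to 8.39 in TolDC, 8.48 to 13.7 in BMDC with LPS and 1.87 to 5.90 in BMDC. Dendritic cell markers did not show this pattern, with 1 of 11 lowest and 3 of 11 highest in library 1 of every group and a median ratio of 1.07. The part of other cells in the levels of the 9 genes was not tested.

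Stem and progenitor markers are set beside Kit in particular. Of these, 5 of 11 were lowest in library 1 of every group, and their summed level was 36.1 to 46.2 CPM in TolDC with LPS, 88.4 to 104 in TolDC, 22.2 to 48.9 in BMDC with LPS and 46.0 to 93.1 in BMDC. In both TolDC groups most of the sum was the gene Cd34. TolDC against BMDC had 2 higher and 5 lower with LPS, and 3 higher and 3 lower without (edgeR). Over all genes tested, 34.3% were higher and 33.7% lower with LPS, and 32.0% and 30.4% without. The replicate block gave 3 higher and 7 lower with LPS, and 3 higher and 6 lower without. Beside this, it called 71.9% and 66.8% of all genes tested. Cd34, a surface protein of progenitors and mast cells, averaged 28.2 ± 0.566 CPM in TolDC with LPS, 68.1 ± 2.54 in TolDC, 10.2 ± 1.45 in BMDC with LPS and 13.9 ± 0.664 in BMDC (SD, n = 3 each). It was higher in TolDC than in BMDC with LPS (1.48 ± 0.07, edgeR adjusted p = 2.75e-12) and without (2.29 ± 0.07, edgeR adjusted p = 2.03e-15), with a library 1 ratio of 0.805 to 1.05. Ms4a3, a gene of granulocyte and monocyte progenitors, was lower in TolDC than in BMDC with LPS, at 2.39 ± 1.16 and 8.72 ± 4.96 CPM (SD, n = 3 each, edgeR adjusted p = 0.0457). Without LPS, Ms4a3 averaged 10.5 ± 4.41 CPM in TolDC and 19.6 ± 7.78 in BMDC (SD, n = 3 each, edgeR adjusted p = 0.193). The replicate block called it lower in TolDC there as well. The library 1 ratio of Ms4a3 was 0.265 to 0.450. Megakaryocyte and erythroid markers had 2 of 5 lowest in library 1 and summed to 45.6 to 55.4 CPM in TolDC with LPS, 23.6 to 35.6 in TolDC, 124.95 to 130.1 in BMDC with LPS and 34.0 to 40.4 in BMDC, and Car1 had no read. Most of the sum in BMDC with LPS was Car2, a carbonic anhydrase, at 107 ± 5.75 CPM there and 23.3 ± 0.464 in BMDC, while Itga2b, a platelet integrin, averaged 12.8 ± 4.99 CPM in TolDC with LPS, 12.1 ± 4.62 in TolDC, 9.13 ± 2.52 in BMDC with LPS and 6.63 ± 1.43 in BMDC (SD, n = 3 each). The part of progenitors in the level of Kit was not tested.

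**Figure D5:**
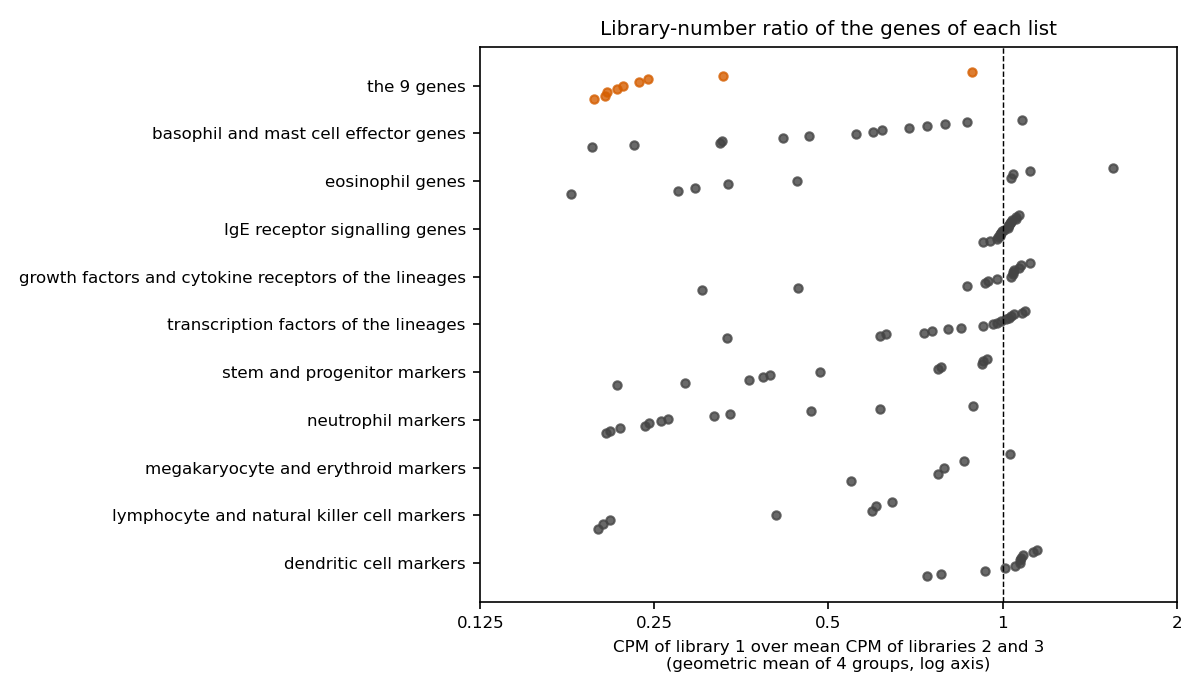
Geometric mean over the 4 groups of the CPM of library 1 over the mean CPM of libraries 2 and 3 (log axis), 1 point for each gene tested of the 9 genes (coloured), the 5 lists of their lineages and 5 lists of markers. Median ratios are 0.220 for the 9 genes, 0.260 for neutrophil markers and 1.07 for dendritic cell markers, and the dashed line marks 1.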

How the data were processed

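The authors deposited 1 table for each of the 12 libraries with whole-number counts per gene, not normalized. Per the labels, total RNA (ISOLATE II RNA Mini Kit) was made into libraries with an Illumina Stranded mRNA Prep Ligation kit. The submitters' processing notes name STAR, cutadapt, edgeR, limma and the mouse build mm10 (GRCm38), without versions or settings. The deposited counts on the strand of column 4, whose total was 35.2 to 37.3 times that of column 3, were used, and 79.3% to 80.6% of the reads were assigned. Reads that matched several places (9.34% to 9.85%) were not counted. Rows that name no gene were left out of library sizes and tests.

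Of the 31054 identifiers, 31011 were matched to GENCODE M21 for names and positions. Genes were filtered with filterByExpr, which left 13141, and TMM scaling gave factors from 0.945 to 1.04. The main model was the robust quasi-likelihood fit of edgeR 4.0.16 (R 4.3.3, limma 3.58.1) over the 4 groups, tested on simulated data beforehand. The simulation gave every gene the same spread and no effect of the library number. It therefore cannot show how the fit performs for genes that are low in library 1. P-values were adjusted by Benjamini-Hochberg over all genes tested and called below 0.05. CPM are scaled by the TMM library sizes, and log2 CPM use a prior count of 2. No library repeated another. P-values measure the spread between these libraries, which may be technical, since no label says that replicates came from separate cultures. The labels do not say what a replicate number marks, but within each of the 4 comparisons of groups, libraries of the same number deviated from their group means together, with correlations from 0.131 to 0.466 over the 12 pairs. These correlations were 0.380 to 0.466 for number 1 and 0.131 to 0.276 for numbers 2 and 3. Deviations from a group mean cancel out within the group. A library 1 apart in every group thus also raises the correlations of numbers 2 and 3. Pairs of unlike number were not compared, so these values cannot tell whether numbers 2 and 3 pair the libraries. The block is an alternative fit and not the design. Its values stand beside those of the 9 genes and beside part of the list counts. The counts of signalling genes, growth factors and receptors, and transcription factors are from the main fit only, and the block changed some. Beside 71.9% of all genes tested, the block called 6 transcription factors higher and 7 lower in TolDC than in BMDC with LPS. Of the signalling genes it called 8 higher and 7 lower there. In BMDC, 9 growth factors and receptors then rose with LPS and 3 fell, beside 75.9%. Alternatives were size factors of DESeq2 1.42.0, its Wald test, no filter, counts without regard to strand, a replicate block, and fits without single libraries or without the 4 numbered 1.

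The 9 genes and all lists were chosen with earlier results of these data known. Named beside the 9 are, for each list of their lineages and comparison, up to 3 called genes with the largest change and at least 1 CPM, and list genes of at least 1 CPM that were lowest in library 1 of every group. To these come the 2 most abundant genes of each marker list and, for each of the 9, the 3 most similar genes. Not all of these are printed. Flt3, Cd209a, Mcpt1, Mcpt4, Mcpt9, Cma2, Tpsb2, Tpsab1, Mrgprb1, Mrgprb2, Ptgdr2, Itga2, Il5ra, Ear10, Il4, Il3, Il5 and Car1 were named outside this rule after their values were seen.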

Additional observations from a re-analysis of the deposited data

Results flagged for a closer look

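The response to LPS differed between TolDC and BMDC, by the edgeR test of the difference itself, for 17 genes. These were counted among the 9 genes and the genes named from the lists of their lineages, without those named from the marker lists. Of all genes tested, 44.4% were called. The count cannot be set against this share, since list genes were named partly for having the largest called changes. Differences are log2 changes with LPS in TolDC minus those in BMDC. Among the 9 genes it was Kit, at -1.18, whose level was raised by LPS in BMDC and hardly moved in TolDC, where it was already high.

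Among effector genes it was -1.501 for Hdc (edgeR adjusted p = 0.0336), which rose in both kinds of cell and lost this call in 10 of the alternatives, and -0.38 for Srgn, the proteoglycan core of granules (edgeR adjusted p = 0.012). Among eosinophil genes it was 1.25 for Ear2, -0.75 for Rnase2a and -1.69 for Siglecf (edgeR adjusted p = 8.96e-09, 4.71e-05 and 5.36e-08). Siglecf fell by more with LPS in TolDC, and Ear2 by more in BMDC.

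Among signalling genes it was 0.44 for Fcer1g, 1.64 for Lat, 0.59 for Lat2, -0.65 for Pik3cd and 0.44 for Syk. Lat rose with LPS in TolDC and was not called in BMDC. Among growth factors and receptors it was -0.96 for Csf2rb2, a subunit with a near-identical relative, 0.48 for Il1rap and 1.57 for Kitl (edgeR adjusted p = 0.0335), which lost the call in 8 of the alternatives. Among transcription factors it was -0.63 for Ikzf2, -0.79 for Stat5a and -0.91 for Tal1. Ikzf2 was called lower with LPS in TolDC and higher in BMDC. Among genes named from the marker lists, the difference was called as well for Cd34 (-0.81), Car2 (-1.09), Lcn2 (2.35), Cd74 (-0.24) and the lymphocyte marker Cd79b (-1.24). Groups of 3 were not searched for outlying libraries.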

How the results depend on the processing

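How many of the 9 genes were called depended on the libraries numbered 1. The comparisons are taken here in the order TolDC against BMDC first with and then without LPS, the LPS response of TolDC, that of BMDC, and the difference of both responses. With all 12 libraries, 1, 1, 0, 1 and 1 of the genes were called, and without the 4 libraries numbered 1 it was 7, 8, 3, 4 and 4. With a replicate block it was 8, 8, 1, 5 and 5. For the difference, which also sets TolDC with LPS beside BMDC, 1 of the 18 pairs of libraries that share a number correlated at or below 0.1 (0.091), so that the numbers were not taken to pair the libraries there. With the replicate block, the genes called over the whole table were 9454, 8780, 9776, 9969 and 6543, against 8929, 8201, 9370, 9614 and 5834 without it. Without any single library, the counts of the 9 stayed at 1, 1, 0, 1 and 1, and those of all genes ran from 8368 to 9106, 7542 to 8453, 8862 to 9575, 9221 to 9709 and 5244 to 5782.

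DESeq2 size factors, the DESeq2 test, no filter on low counts and counts without regard to strand left the number of the 9 genes called as it was. No called value changed sign under any alternative. Of the values of the 9 genes that were not called, 66 changed sign, 65 of them when a single library was left out, such as Mcpt8 for LPS in BMDC, from 0.03 to -0.40 without BMDC replicate 1, and Epx, from -0.26 to 0.26 without replicate 1 of BMDC with LPS. Kit moved by more than its standard error without library 1 of BMDC with LPS. It moved to 1.47 for LPS in BMDC, 2.24 for TolDC against BMDC with LPS and -1.39 for the difference. Without the 4 libraries, Kit moved by more than its standard error to 1.46 for LPS in BMDC and 2.27 for TolDC against BMDC with LPS. Of the values of list genes under alternatives, 38 lost their call and 2068 did not, and for the difference Hdc lost it in 10 settings and Kitl in 8, at -1.69 to -1.19 and 1.31 to 1.61. Kitl for TolDC against BMDC with LPS was not called without replicate 3 of BMDC with LPS, at -0.86. The cause of the number 1 pattern was not tested.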
